A study of Brassica napus with 33 samples.

Results

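Hybrid seeds of Brassica napus (oilseed rape) were set against the seeds of their own mother. F0 ovules came from flowers of the maternal line Express617 that had been pollinated by the paternal line G3D001, so that their seed coat was Express617 and their embryo and endosperm were hybrid, and Express617 ovules came from selfed plants of that line. Both were taken 15 days after fertilization, the stage called OS15, and their small RNAs were sequenced in 3 libraries of each. The members are these 6 libraries of 33 in the series, chosen by their labels alone. Alongside them, 3 libraries of selfed G3D001 ovules gave the paternal level at the same stage, and 3 libraries of ovules of selfed F1 plants, whose seed coat is itself hybrid, gave another hybrid. Express617 is a winter-type inbred line and G3D001 a semi-winter inbred line of semi-synthetic origin, in which the study notes a duplicated chromosome A02 and a deleted C02. No transgene or treatment was used. Plants were grown in a potting field, and each ovule library was made from pooled ovules of different plants. The remaining libraries of the series are leaves and ovules at 30 days (OS30), used here only where stated.

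Most small RNAs of a plant seed are small interfering RNAs of the 24-nt class, made from transcripts of RNA polymerase IV and used to guide DNA methylation to transposons and other loci with the same sequence. Shorter classes include microRNAs and other small interfering RNAs that act on messenger RNAs, and fragments of transfer and ribosomal RNAs are sequenced with them. A seed joins a maternal seed coat to a filial embryo and endosperm, and in Arabidopsis and Brassica rapa much of the polymerase IV small RNA of young seeds is known to be of maternal origin.

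The files gave counts for 91060 clusters, which are genomic intervals covered by small RNA reads on the Express617 assembly, and for 10201 entries given as an RNA sequence with no position, here called sequence entries. Levels are in CPM, the usual scaling of counts to a common library size, here by the counts on all clusters of that library. The cluster totals were 16655150, 19164106 and 18171388 counts in F0, 16375941, 13973699 and 16002108 counts in G3D001, and 14680979, 14456518 and 18575920 counts in Express617. Each library is 1 sample of its group. Whole ovules were extracted, so fewer cells of a tissue and less RNA per cell cannot be told apart, and no gene marker of the tissue could be read from small RNA clusters. The p-values measure the spread between these samples, which may be partly technical.

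Some libraries stood apart from their group. F0 replicate 3 held 100 clusters at more than 5 times the CPM of both other F0 replicates (with at least 50 counts), together 0.391% of its counts, against 1 and 2 such clusters in F0 replicates 1 and 2. G3D001 replicate 2 held 316 such clusters, with 3.52% of its counts, against 0 and 2 in the other G3D001 libraries, and the Express617 libraries held 0, 2 and 2. Selfed F1 replicate 2 held 93, with 0.309% of its counts, against 0 and 3 in selfed F1 replicates 1 and 3. At 30 days F0 replicate 1 held 97, against 6 and 3 in F0 replicates 2 and 3. Of the 100 clusters of F0 replicate 3, 69 were on sequences outside the A and C chromosomes, and none was among the parent-specific clusters described below. The same clusters stood apart in single libraries elsewhere in the series, 95 of the 100 (60.9% of that library's own list) in G3D001 replicate 1 at 30 days, 82 (67.2%) and 59 (96.7%) in leaf replicate 1 of Express617 and of G3D001, 78 (84.8%) in selfed F1 replicate 1 at 30 days, and 41 (97.6%) in Express617 replicate 1 at 30 days. No other library at 15 days shared any. In 23 sequence entries, described with their values further on, all 3 F0 libraries at 15 days stood apart from every other 15-day library. Main counts that rest on these libraries are given with and without them, except that the selfed F1 was read only with all 3 of its libraries.

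The small RNA clusters of F0 ovules were close to those of Express617 ovules. Of 90944 clusters tested, 12 differed between F0 and Express617 (0.0132%), 7 higher in F0 (0.0077%) and 5 lower (0.0055%), by edgeR's quasi-likelihood test at a Benjamini-Hochberg adjusted p under 0.05. In the same fit 16792 clusters differed between F0 and G3D001 (18.5%), with 9708 higher and 7084 lower in F0, and 16846 between G3D001 and Express617 (18.5%). At an unadjusted p under 0.05, 3674 clusters (4.04%) separated F0 from Express617. The count of 12 depended on single libraries. It was 83, 68 and 2 without F0 replicates 1, 2 and 3, 43, 176 and 42 without G3D001 replicates 1, 2 and 3, and 9, 2 and 3 without Express617 replicates 1, 2 and 3. With only the 6 libraries of F0 and Express617 in the fit it was 204, of which 40 were lower in F0 and the others higher, 88 of these at clusters where F0 replicate 3 stood apart. Such clusters were also 66 of the 78 higher calls without F0 replicate 1 and 58 of the 66 without F0 replicate 2. They were 26 of 35, 84 of 142 and 24 of 33 higher calls without G3D001 replicates 1, 2 and 3.

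No label says what a replicate number shares, and the count of 12 is from the fit without it. F0 and Express617 libraries of the same number deviated together from their group means, though weakly. The numbers were therefore also taken as pairs, and with the number as a replicate block the count was 66. Of these, 54 were higher in F0 and 12 lower, and 34 of the 54 were clusters at which F0 replicate 3 stood apart. The block kept 10 of the 12 clusters and lost the other 2.

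How far the levels could have differed was read from the intervals, because a p above the threshold does not show that levels are alike. Among the 15669 clusters that averaged 20 counts or more over the libraries, the log2 fold change of F0 over Express617 had a median of -0.00 and ran from -0.54 to 0.58 between its 5% and 95% quantiles, whereas that of F0 over G3D001 ran from -3.21 to 3.81. The 95% interval of the fold change lay within 2-fold for 10826 of these clusters (69.1%) in F0 over Express617 and for 5047 (32.2%) in F0 over G3D001. Fitted fold changes of 2-fold or more in either direction numbered 351 (2.24%) in the comparison with Express617 and 5862 (37.4%) in that with G3D001. The median standard error was 0.31, and for 45 clusters no standard error could be had.

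**Figure D1:**
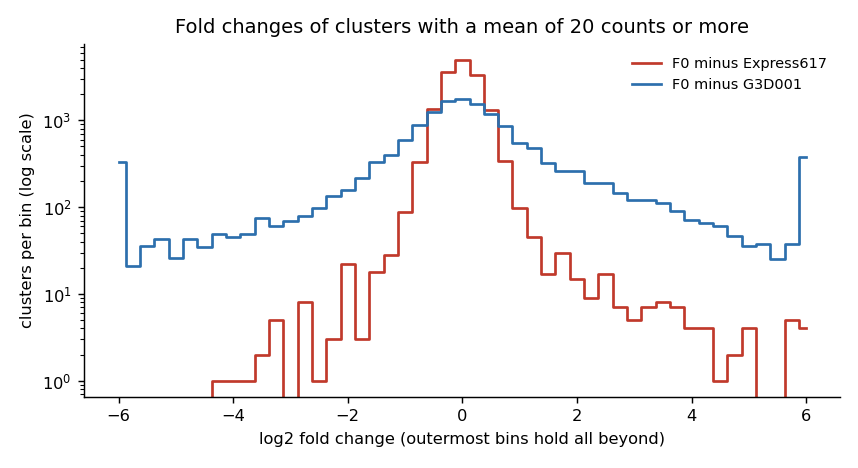
Distribution of log2 fold changes over 15669 small RNA clusters at 15 days (x axis, log2 fold change from edgeR; outermost bins holding all beyond; y axis, number of clusters on a log scale), for F0 over Express617 and F0 over G3D001. The first is narrow around 0, with 351 clusters at an absolute value of 1 or more, and the second is broad, with 5862.

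Library by library the picture was the same. The median absolute log2 ratio between a pair of libraries over these clusters was 0.225 to 0.239 among F0 libraries, 0.237 to 0.302 between F0 and Express617 libraries and 0.234 to 0.264 among Express617 libraries. Between F0 and G3D001 libraries it was 0.590 to 0.691, and among the G3D001 libraries 0.255 to 0.411. The ranges of the F0 and Express617 pairs thus overlapped those within each group, and the pairs of F0 with G3D001 did not.

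The 7 clusters higher in F0 fell into 4 at which G3D001 was itself called above Express617, 1 at which G3D001 was called below it, and 2 carried by a single F0 library. Cluster_4688 (A02:12509688-12514967) had 6.24, 3.97 and 5.61 CPM in F0 and 1208, 871 and 1043 CPM in G3D001, against 0.477, 0.484 and 0.323 CPM in Express617. All F0 libraries lay above all Express617 libraries, and their mean was 0.507% of the G3D001 mean. Its log2 fold change over Express617 was 3.68 with a standard error of 0.25 (edgeR adjusted p = 2.00e-10), and it was called whichever of the 9 libraries was left out. Cluster_22660 (A08:2159919-2160288) had 1.50, 1.72 and 3.52 CPM in F0 and 18.3, 19.9 and 18.8 CPM in G3D001, against 0.409, 0.208 and 0.215 CPM in Express617. The groups did not overlap, the log2 fold change was 3.08 with a standard error of 0.40 (edgeR adjusted p = 0.000566), and this cluster too was called with each library left out.

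The other clusters higher in F0 did not hold in every such fit. Cluster_47690 (C03:51415405-51415425), an interval of 21 bp, had 8, 12 and 10 counts in F0 and 119, 54 and 102 counts in G3D001, against 0, 0 and 0 in Express617. With a floor of 3 counts over the Express617 group, it was at least 8.84-fold higher in F0 (edgeR adjusted p = 0.0193). Cluster_56513 (C05:11119245-11119397) had 5.28, 7.25 and 11.2 CPM in F0 and 310, 142 and 313 CPM in G3D001, against 1.63, 1.73 and 3.07 CPM in Express617. Its F0 libraries were all above those of Express617, with a log2 fold change of 1.94 and a standard error of 0.32 (edgeR adjusted p = 0.0193). Cluster_56228 (C05:9273395-9273670) went beyond both parents, with 12.8, 11.8 and 13.9 CPM in F0 and 1.28, 0.644 and 1.19 CPM in G3D001, against 4.84, 4.57 and 4.52 CPM in Express617. The selfed F1 libraries had 12.2, 15.8 and 8.54 CPM there, also above both parents, and the log2 fold change of F0 over Express617 was 1.54 with a standard error of 0.27 (edgeR adjusted p = 0.0234).

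The last 2 rested on F0 replicate 3. Cluster_90566 (scaffold R21714:386524-386828) had 8.83, 6.99 and 629 CPM in F0 against 9.67, 7.82 and 6.89 CPM in Express617, and Cluster_87345 (scaffold R54:223594-223848) had 2.22, 2.04 and 247 CPM in F0 against 2.11, 2.70 and 2.75 CPM in Express617. Only replicate 3 lay outside the Express617 range upwards. The log2 fold changes of 4.76 and 5.07 became 0.05 and -0.16 without it, and both calls were lost with the replicate block (edgeR adjusted p = 0.127 and 0.0761, against 0.0474 and 0.0479 without the block).

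At 2 of the 5 clusters lower in F0, G3D001 was also called below Express617. Cluster_22700 (A08:2438336-2438915) had 1.98, 1.10 and 1.65 CPM in F0 and 0.305, 0.286 and 0.437 CPM in G3D001, against 4.36, 6.23 and 6.35 CPM in Express617, a log2 fold change of -1.80 with a standard error of 0.30. Cluster_41834 (C03:1855359-1855633) had 0.841, 0.365 and 0.715 CPM in F0 and 0, 0.215 and 0 CPM in G3D001, against 3.88, 2.91 and 3.12 CPM in Express617, a log2 fold change of -2.30 with a standard error of 0.39. F0 lay between the parents at both, and no F0 library reached the lowest Express617 library (edgeR adjusted p = 0.0193 at each).

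At the remaining 3 lower clusters G3D001 was not called against Express617. Cluster_60608 (C06:385938-386001) had 0.720, 0.470 and 0.220 CPM in F0 and 5.56, 17.6 and 6.87 CPM in G3D001, against 0.817, 8.58 and 6.51 CPM in Express617, a log2 fold change of -3.47 with a standard error of 0.58. Cluster_88807 (scaffold R211028:35944-36010) had 1.08, 0.835 and 0.660 CPM in F0 and 3.42, 4.72 and 3.13 CPM in G3D001, against 2.11, 4.50 and 4.15 CPM in Express617, a log2 fold change of -2.01 with a standard error of 0.35. Cluster_10479 (A03:31413882-31413940) had 20.1, 21.5 and 18.4 CPM in F0 and 45.2, 105 and 200 CPM in G3D001, against 31.1, 146 and 128 CPM in Express617, a log2 fold change of -2.31 with a standard error of 0.42. In these intervals of under 100 bp the F0 libraries lay below every library of both parents, while Express617 replicate 1 was the lowest of its own group in each. The drop was not particular to F0. The selfed F1 means were 0.433, 1.36 and 32.5 CPM in that order, beside Express617 means of 5.30, 3.58 and 102 CPM. The edgeR adjusted p was 0.0193, 0.0234 and 0.0474 in that order. Each of the 5 lower calls was lost in at least 1 fit with a library left out.

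**Figure D2:**
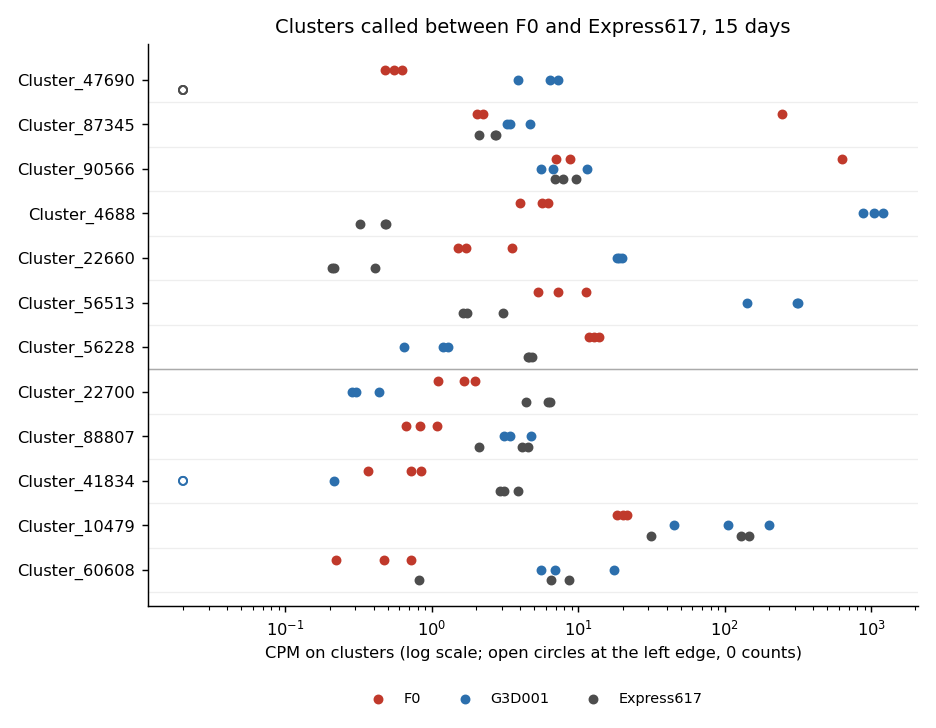
CPM on a log axis in each library for the 12 clusters that differed between F0 and Express617 at 15 days, with F0, G3D001 and Express617 libraries as separate points and open circles for 0 counts. F0 replicate 3 alone is high at Cluster_90566 and Cluster_87345, at 629 and 247 CPM, and F0 is far below G3D001 at Cluster_4688.

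Of the 12 clusters, which are 0.0132% of those tested, 10 had no overlap between the F0 and Express617 libraries. Such a gap was found at 9738 of the clusters tested (10.7%), and the 12 were called from the same libraries, so nothing is read from this count. DESeq2 called 4 of them, did not call 1 (Cluster_10479, adjusted p = 0.162) and gave no adjusted p for 7. Short intervals stood out, since 4 of the 12 were among the 1960 of 90944 clusters that are up to 100 bp long.

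The next question was how much small RNA that is particular to the father could be found in the hybrid seed. Clusters near absent in Express617 (mean under 0.5 CPM) and high in G3D001 (mean of at least 10 CPM and at least 5 CPM in each library) were selected without use of F0, and 203 clusters met these limits. They are called paternal-specific below. They lay on all 19 chromosomes, 87 on A chromosomes, 102 on C chromosomes and 14 on other sequences, with 11 on A02 and 9 on C02.

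F0 held next to none of this small RNA at 15 days. The median over the 203 clusters of the F0 level as a percentage of the G3D001 mean was 0.375%, 0.321% and 0.357% in the F0 libraries, or 0.351% ± 0.0276 (SD, n = 3), beside 44.4% ± 1.62 (SD, n = 3) in the selfed F1 and 0.332% ± 0.00621 (SD, n = 3) in Express617, where a low level was the rule of selection. In CPM, the median cluster had 0.120, 0.104 and 0.110 in F0, 10.8, 11.01 and 10.3 in the selfed F1, 25.3, 21.5 and 22.3 in G3D001, and 0.136, 0.138 and 0.108 in Express617. The F0 libraries were within the range of the Express617 libraries or just below it, and the selfed F1 libraries were at nearly the midpoint of the parents.

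Summed over the 203 clusters, F0 had 47.1, 35.0 and 48.8 CPM, the selfed F1 5565, 5508 and 5407 CPM, G3D001 13821, 10729 and 12040 CPM, and Express617 34.3, 32.1 and 30.9 CPM. Each F0 sum was above each Express617 sum. Without Cluster_4688 the sums were 40.8, 31.0 and 43.2 CPM in F0 and 33.9, 31.6 and 30.6 CPM in Express617, and the groups overlapped. That cluster had itself been called higher in F0 from the same libraries.

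Because Express617 had helped to choose these clusters, each Express617 library was also read at clusters chosen without it. With Express617 replicate 1, 2 or 3 held out, 209, 203 and 204 clusters were chosen. At them the F0 sums were 50.6, 38.5 and 51.6 CPM against 43.5 CPM in replicate 1, 47.5, 36.1 and 49.2 CPM against 35.6 CPM in replicate 2, and 47.0, 36.9 and 52.0 CPM against 34.2 CPM in replicate 3. F0 replicate 2 lay below Express617 replicate 1 in this reading, and otherwise the F0 sums were the higher ones. Without Cluster_4688 the F0 sums were 44.4, 34.5 and 45.95 CPM against 42.98 CPM in replicate 1, 41.2, 32.1 and 43.6 CPM against 35.1 CPM in replicate 2, and 40.8, 32.9 and 46.4 CPM against 33.9 CPM in replicate 3. F0 replicate 2 was then below the held-out library each time, and F0 replicates 1 and 3 were above it. The median cluster of the held-out libraries had 0.136, 0.138 and 0.108 CPM, as before.

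**Figure D3:**
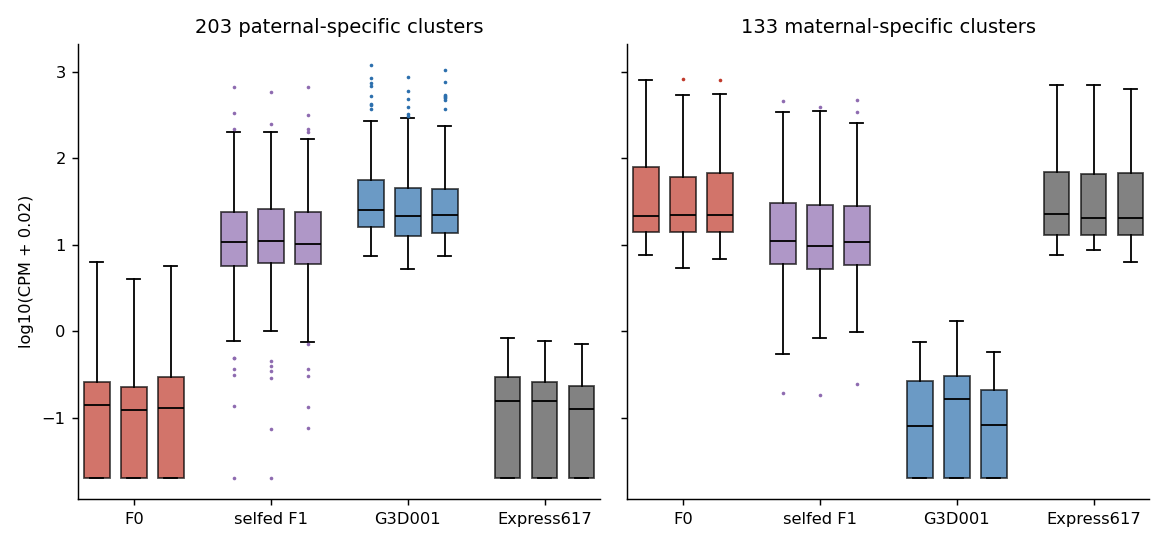
Box plots of cluster levels at 15 days, 1 box per library of F0, selfed F1, G3D001 and Express617 (y axis, log10 of CPM plus 0.02; box, quartiles with the median; whiskers, 1.5 times the box height; points, clusters beyond), for 203 paternal-specific and 133 maternal-specific clusters. The F0 boxes lie at the level of Express617 in both panels, with medians of 0.104 to 0.120 CPM at the paternal-specific clusters, and the selfed F1 boxes lie nearer to the parent with the high level.

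No member of the set came near the G3D001 level. In F0, 27 of the 203 clusters had no count in any library, 144 had a mean under 1% of G3D001, 58 had 1% to 10%, and 1 had more than 10%, Cluster_22660 at 11.8%. In the selfed F1, 194 had more than 10%. All 203 were called lower in F0 than in G3D001, and 2 were called against Express617, the clusters on A02 and A08 described above (6 with the replicate block). The low Express617 level was part of the selection, so nothing more is read from these counts.

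The 10 members highest in G3D001 showed the size of the gap. Cluster_4436 (A02:10618842-10619692) had 0.240, 0.313 and 0.165 CPM in F0 and 692, 488 and 766 CPM in G3D001, against 0.0681, 0 and 0.431 CPM in Express617. Cluster_18951 (A06:25803912-25805378) had no count in any F0 library and 517.7, 393.4 and 526.2 CPM in G3D001, against 0.0681, 0.277 and 0 CPM in Express617. The selfed F1 had 217, 203 and 220 CPM at Cluster_4436. Of the 10, Cluster_4688 was the only one called against Express617. The other 9 (Cluster_4436, Cluster_84610, Cluster_9520, Cluster_18951, Cluster_3580, Cluster_44805, Cluster_70578, Cluster_60576 and Cluster_42274) were at 0% to 0.0581% of the G3D001 mean in F0.

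The members highest in F0 were chosen by their F0 level and are described without a test of that choice. After Cluster_4688 and Cluster_22660 they were Cluster_36493 (C01:42694700-42695093), with 2.58, 0.835 and 1.16 CPM in F0 against 0.817, 0.208 and 0.108 CPM in Express617, then Cluster_85564 and Cluster_54892. At Cluster_85564 (scaffold R186_C06:797933-798256) F0 had 0.120, 0.835 and 2.04 CPM against 0.0681, 0.208 and 0 CPM in Express617. Cluster_54892 (C04:54156266-54157828) had 0.781, 0.731 and 1.38 CPM in F0 against 0.409, 0.277 and 0.161 CPM in Express617. None of these 3 passed the threshold (edgeR adjusted p = 0.177, 0.119 and 0.0934).

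At the limit of selection, the members nearest inside it were Cluster_1537 and Cluster_18032, with 0.340 and 0.393 CPM in F0 and 0.496 and 0.482 CPM in Express617. Nearest outside it were Cluster_7174 and Cluster_50007, with 0.373 and 0.263 CPM in F0 and 0.504 and 0.506 CPM in Express617. F0 was below Express617 at all 4.

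The mirror image was selected with the parents exchanged, which gave 133 maternal-specific clusters, 67 on A chromosomes, 63 on C chromosomes and 3 on other sequences. Chromosome C02, which the study notes as deleted in G3D001, carried 19 of them and 5031 of all 91060 clusters. F0 held all of this small RNA at about the Express617 level. The median over the clusters was 109%, 104% and 106% of the Express617 mean in the F0 libraries, or 106% ± 2.50 (SD, n = 3), and 47.3% ± 1.71 (SD, n = 3) in the selfed F1.

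Every one of the 133 had an F0 mean between 58.8% and 147% of the Express617 mean. By edgeR none was called between F0 and Express617, without or with the replicate block, nor by DESeq2, beside 0.0132% of all clusters called by edgeR. At an unadjusted p under 0.05 there were 7, and all 133 were called above G3D001. The levels of both parents were part of the selection, and few clusters of any kind were called against Express617. These counts are therefore a description only. The sums were 9125, 8725 and 9099 CPM in F0, 4157, 3978 and 4142 CPM in the selfed F1, 20.4, 28.6 and 15.5 CPM in G3D001, and 8672, 8294 and 8265 CPM in Express617. Each F0 sum was above each Express617 sum, and the selfed F1 sums were below both groups.

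The 5 maternal-specific clusters highest in Express617 were Cluster_39691, Cluster_37687, Cluster_51887, Cluster_37642 and Cluster_39693, of which Cluster_51887 was on C04 and the others on C02. Cluster_39691 (C02:38007434-38007917) had 807, 818 and 812 CPM in F0 and 0.489, 0.787 and 0.187 CPM in G3D001, against 702, 694 and 634 CPM in Express617. Its F0 libraries were all the higher ones, with a log2 fold change of 0.34 that did not pass (edgeR adjusted p = 0.999). The log2 fold changes of the 5 ran from 0.08 to 0.34.

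Clusters chosen in leaves gave a reading that the ovule libraries had no part in. By the same limits, 29 clusters were paternal-specific in leaves, and 1 of them, Cluster_22660, was called in F0 against Express617 at 15 days. It was higher in F0, which makes 3.45% of the 29, beside 0.0077% of all clusters. Their median log2 fold change of F0 over Express617 was 0.08, beside 0.00 over all clusters, whereas that of G3D001 over Express617 was 6.001. Their sums were 15.6, 16.9 and 18.7 CPM in F0 and 704, 529 and 561 CPM in G3D001, against 10.6, 11.9 and 12.5 CPM in Express617. F0 was thus above Express617 in each library by a few CPM, with the gap to G3D001 nearly whole. The count of 1 was 5 with the replicate block, 5 without G3D001 replicate 2, 3 without G3D001 replicate 1 or 3 or F0 replicate 1 or 2, and 2 without Express617 replicate 1. The count over all clusters also changed in these fits, as given above.

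Wider leaf lists were read in the same way. Of 5090 clusters at least 2-fold higher in G3D001 leaves, 4 were called higher in F0 ovules (0.0786%, beside 0.0077% of all clusters) and 0 lower, with a median log2 fold change of 0. Of 8974 lower in G3D001 leaves, 0 were called by edgeR or DESeq2, and 309 had an unadjusted p under 0.05, of which 144 were higher in F0. Of the 32 clusters that were maternal-specific in leaves, 0 were called by edgeR or DESeq2 and 0 had an unadjusted p under 0.05.

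A single figure for F0 was had by placing each cluster that differed between the parents on a scale with Express617 at 0 and G3D001 at 1. Over 16011 such clusters the median position was 0.0306, 0.0668 and 0.0338 in the F0 libraries, or 0.0437 ± 0.0201 (SD, n = 3), and 0.540 ± 0.0140 (SD, n = 3) in the selfed F1. For the 6825 clusters higher in G3D001 it was 0.00774 ± 0.00673 in F0 and 0.286 in the selfed F1, and for the 9186 lower in G3D001 it was 0.135 ± 0.0875 in F0 and 0.718 in the selfed F1. F0 lay next to Express617 in either direction, and F0 replicate 2, at 0.235, was the farthest from it in the second. Over all 16011 clusters the distance of replicate 2 depended on the scaling. On CPM scaled by TMM, as in the edgeR fit, the median position over them was 0.0306 ± 0.00170 (SD, n = 3). It was not read on that scale for the 9186 clusters alone. The Express617 libraries enter both the selection and the scale.

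Along the genome the F0 libraries followed Express617. The median log2 fold change per chromosome over Express617 ran from -0.04 on A10 to 0.07 on C05 in F0, and from -0.76 on C02 to 0.42 on A02 in G3D001. Single F0 libraries stayed between -0.08 and 0.08 on all 19 chromosomes, and single G3D001 libraries reached -0.99 and 0.53.

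**Figure D4:**
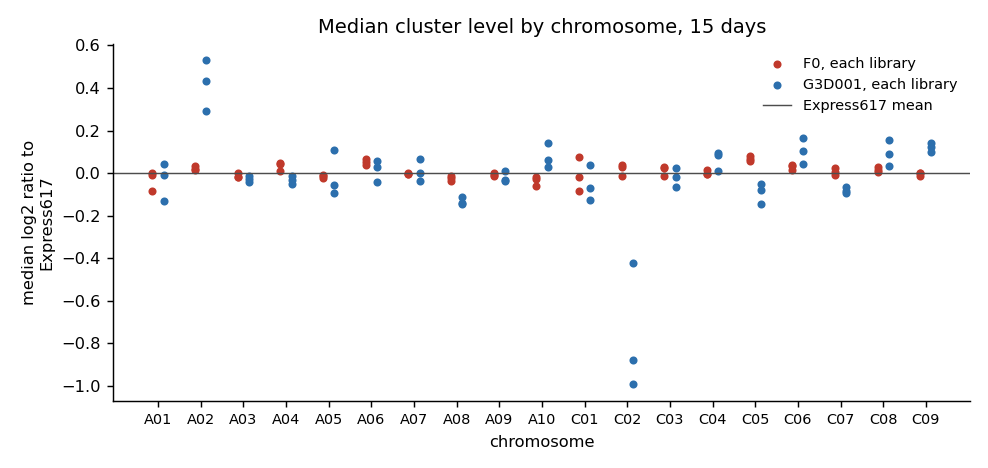
Median log2 ratio to the Express617 mean for each of 19 chromosomes (x axis) in each F0 and G3D001 library at 15 days (y axis, log2). F0 libraries stay between -0.08 and 0.08, whereas G3D001 libraries fall to -0.99 on C02 and reach 0.53 on A02.

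The most abundant clusters were shared as well. Of the 100 highest clusters in F0, 93 were among the 100 highest in Express617, and 68 among those of G3D001. None of the 100 highest over F0 and Express617 was called by edgeR or DESeq2, with 2 at an unadjusted p under 0.05, their log2 fold changes ran from -0.40 to 0.39, and the interval lay within 2-fold for 95. The highest was Cluster_77054 on C09, with 22490, 40033 and 34886 CPM in F0 against 22520, 31585 and 44966 CPM in Express617. Its libraries overlapped widely, with a log2 fold change of 0.06 and a standard error of 0.42. Cluster_73572 and Cluster_75069 on C08, Cluster_70555 on C07 and Cluster_40653 on C02 followed, with log2 fold changes of -0.37 to -0.00.

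The sequence entries allowed the paternal small RNA to be read by length. By the limits used for clusters, 615 entries were near absent in Express617 and high in G3D001, of which 466 were 24 nt long, 70 were 22 nt and 28 were 21 nt. The entries highest in G3D001 are shown because F0 all but lacked them, the 24-nt ones first and then those of 21 nt.
24-nt entry a: acugcgacugcauccgcuuggacc
24-nt entry b: cuuccaucucgcagcaugaaccug
24-nt entry c: aauacuucuggcaggaacacuguu
21-nt entry a: auugaucagacugucgagguc
21-nt entry b: ugccgacugauuguccgacuc
The 24-nt entry a had 1, 0 and 0 counts in F0 and 16447, 7215 and 9674 counts in G3D001. The 21-nt entry a had 0, 0 and 0 counts in F0 and 783, 775 and 852 counts in G3D001, and the selfed F1 had 679, 741 and 668 counts of it. Both were at the floor of the F0 libraries, where 3 counts are the limit that a count of 0 allows, and this covers counting error only.

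Summed by class, the 466 paternal-specific 24-nt entries had 3.30, 1.15 and 0 CPM in F0, 10139, 9076 and 9233 CPM in the selfed F1, 26374, 19994 and 21941 CPM in G3D001, and 0, 2.97 and 1.40 CPM in Express617. F0 and Express617 overlapped, and none of these entries had a count in every F0 library. The 70 entries of 22 nt had 1.14, 0.887 and 0.881 CPM in F0, 2159, 1586 and 1685 CPM in G3D001, and 0, 0.138 and 0.161 CPM in Express617. The 28 of 21 nt had 0.420, 0.417 and 0.275 CPM in F0, 552, 554 and 553 CPM in G3D001, and 0, 0.138 and 0.0538 CPM in Express617. The F0 mean was 0.0536% of the G3D001 level at 22 nt and 0.0671% at 21 nt. Of these entries, 64 of 70 and 24 of 28 had no count in any F0 library, and most of the F0 sum came from 1 entry of each class that was called higher in F0. Without that entry the 22-nt class had 0.360, 0.104 and 0 CPM in F0 against 0, 0.138 and 0.161 CPM in Express617, and the 21-nt class had 0.240, 0 and 0 CPM in F0 against 0, 0.138 and 0.0538 CPM in Express617. The groups then overlapped in both classes, but the entry left out of each had been picked by this same comparison.

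The longest entries differed, mainly through entries that were called higher in F0. The 13 entries of 25 to 36 nt had 17.2, 11.7 and 16.2 CPM in F0, 112, 113 and 114 CPM in the selfed F1, 202, 211 and 227 CPM in G3D001, and 0, 0.138 and 0 CPM in Express617. That was 7.05% ± 1.37 of the G3D001 level in F0 (SD, n = 3), beside 0.00651% ± 0.00736 for the 24-nt entries and 1.23% ± 0.270 for the 12 entries of 18 to 20 nt. Of the 13, 9 had a count in each F0 library, and the other 4, all 25 nt long, had none. Much of the sum came from 5 entries of a single family, called A below, with 14.2, 9.13 and 12.8 CPM in F0. The 8 entries outside it had 2.94, 2.56 and 3.47 CPM in F0, 116, 115 and 126 CPM in G3D001, and 0, 0.0692 and 0 CPM in Express617, and F0 was at 2.52% ± 0.385 of the G3D001 level there (SD, n = 3). Of the 13, 8 were called higher in F0, and 4 of the 5 others had no F0 count. Those 5 had 0.781, 0.731 and 0.660 CPM in F0 and 67.9, 48.3 and 73.4 CPM in G3D001. F0 was then at 1.15% ± 0.0955 of the G3D001 level (SD, n = 3), all of it from 1 entry of 32 nt with 13, 14 and 12 counts. The 1.23% of the 18 to 20 nt class still holds its 1 called entry, and Express617 was at 0.321% of G3D001 in that class.

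**Figure D5:**
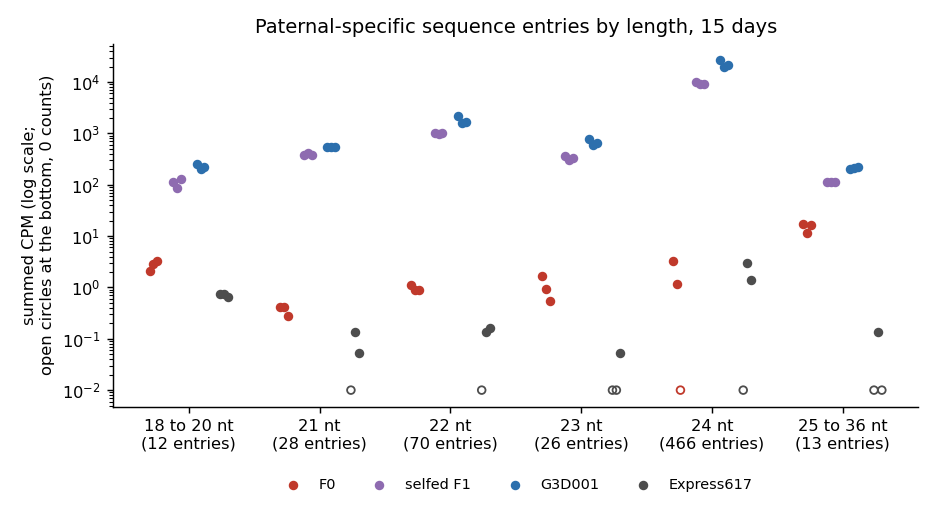
Summed CPM of 615 paternal-specific sequence entries by length class at 15 days (x axis, length in nt; y axis, CPM on a log scale, open circles for 0 counts), 1 point per library of F0, selfed F1, G3D001 and Express617. F0 is lowest relative to G3D001 at 24 nt and highest at 25 to 36 nt, where it has 11.7 to 17.2 CPM against 202 to 227 CPM in G3D001. Of the 13 entries of 25 to 36 nt, 8 were called higher in F0.

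Over all 9120 sequence entries tested, 42 differed between F0 and Express617 (0.461%), 19 higher in F0 and 23 lower, by edgeR. The 19 fell into 5 families by a shared stretch of at least 15 nt, 14 were of 25 to 36 nt and none was 24 nt long, and 12 were among the paternal-specific entries. Every one of the 19 had counts in each F0 and each G3D001 library, and 18 had no count in Express617. Representative members are printed because they were called higher in F0. Family E held none of the paternal-specific entries, and 5 of the 9 members of A and 3 of the 5 of B were among them. Capitals mark the stretch that the called members of a family share, and in families B, C, D and E the shortest member is capitalised whole.
A, 27 nt: CCGGGCUCCAAUUGGACCAUCUCUUUu
A, 28 nt: aCCGGGCUCCAAUUGGACCAUCUCUUUu
A, 33 nt: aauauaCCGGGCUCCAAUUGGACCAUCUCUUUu
B, 22 nt: UUCCAGUCGGACCAUCAUCUUU
B, 35 nt: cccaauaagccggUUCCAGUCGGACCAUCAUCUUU
C, 32 nt: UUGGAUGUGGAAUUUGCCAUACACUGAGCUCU
D, 20 nt: GUUUCCGGCAGGUUGGACCA
D, 21 nt: cGUUUCCGGCAGGUUGGACCA
E, 19 nt: UUUUCCCGCACCUCCACCA
The members of a family differ at the 5′ end, by up to 13 bases in B, and in A also in the last base. Those of D and E, 3 entries in all, end in CCA, the 3 bases found at the end of mature transfer RNAs. No member could be given a gene, since these entries carry no position.

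Family A, with 9 called members of 27 to 33 nt, had 16.5, 11.5 and 14.4 CPM in F0, 80.6, 87.2 and 85.8 CPM in the selfed F1, and 100, 113 and 115 CPM in G3D001, against 0, 0.0692 and 0 CPM in Express617, where a single count was seen. F0 was at 12.9% of the G3D001 mean. The 28-nt member shown had 5.52, 2.56 and 4.51 CPM in F0 and 33.4, 26.6 and 40.0 CPM in G3D001, against 0 in all Express617 libraries (edgeR adjusted p = 0.00617). In the family as a whole, all F0 libraries lay below those of the selfed F1, which lay below those of G3D001.

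Family B, with 5 called members of 22 to 35 nt, had 4.92, 3.39 and 3.08 CPM in F0 and 62.6, 79.9 and 51.4 CPM in G3D001, and was at least 59.8-fold higher in F0 than in Express617, where it had no count against a floor of 3 counts over the group. Family C had 1.02, 1.15 and 2.09 CPM in F0 and 26.6, 47.3 and 41.6 CPM in G3D001, at least 22.7-fold above Express617. Family D had 0.480, 0.783 and 0.715 CPM in F0 and 26.7, 28.2 and 22.2 CPM in G3D001, at least 10.6-fold above Express617. In the called members of B, C and D the F0 level was 5.88%, 3.69% and 2.57% of G3D001. Over all 17, 3 and 4 entries with the shared stretch it was 5.48%, 3.52% and 2.31%. Express617 had no count in those of B and C, and 1 count in those of D. The fold limits are for the called members alone, which were picked by this same comparison.

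Family E, a single entry of 19 nt, had a pattern of its own, with 0.600, 0.365 and 0.330 CPM in F0, 3.90, 4.99 and 5.07 CPM in the selfed F1, and 2.02, 1.57 and 2.31 CPM in G3D001, against 0 CPM in Express617. The selfed F1 libraries were above those of G3D001 and F0 was at 22.0% of G3D001. The calls of sequence entries were sensitive to the libraries in the fit: 9 to 19 of the entries passed with 1 of the 9 libraries left out, and 0 passed with the 6 libraries of F0 and Express617 alone, where 310 had an unadjusted p under 0.05 and DESeq2, on all 9 libraries, called 78.

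The 23 entries lower in F0 were of another kind. Their summed level was 0.540, 1.20 and 0.715 CPM in F0, 152, 102 and 430 CPM in the selfed F1, and 202, 140 and 136 CPM in G3D001, against 190, 177 and 135 CPM in Express617. Leaves of the series had 336 to 440 CPM, and every 30-day ovule library had 0 to 1.10 CPM. In these entries the F0 libraries at 15 days were thus at the level of the 30-day libraries and apart from every other 15-day and leaf library. Several carry the letters of well-known vertebrate microRNAs such as the let-7 family, and their sequences are not given. The labels name no library preparation batch. The part of such a split in the differences between F0 and Express617 was not tested.

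The 7 maternal-specific entries had 99.3, 96.7 and 98.1 CPM in F0 and 51.8, 41.2 and 53.7 CPM in the selfed F1, against 109, 98.0 and 100 CPM in Express617. F0 and Express617 overlapped in range. The 5 most abundant entries over F0 and Express617 all end in CCA and none was called. The highest, 18 nt long and printed with the ending in capitals, was the following.
Highest entry: uucacgucggguucaCCA
It had 1024, 768 and 730 CPM in F0 against 999, 813 and 589 CPM in Express617, a log2 fold change of 0.15 with a standard error of 0.24.

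At 30 days the paternal-specific clusters held more small RNA in F0 than at 15 days. The 203 clusters had summed levels of 47.1, 35.0 and 48.8 CPM in F0 at 15 days and 1495, 1839 and 2009 CPM at 30 days, when G3D001 had 13384, 11791 and 15332 CPM and Express617 had 397.9, 384 and 401 CPM. In a fit of F0 and Express617 at both stages, 12 clusters differed between F0 and Express617 at 15 days and 6509 at 30 days, and the difference itself changed between the stages at 244 of 91046 clusters (0.268%). That count was 112, 113 and 78 without Express617 replicates 1, 2 and 3 at 15 days, 129 without F0 replicate 3 at 15 days, 893 and 152 without F0 replicates 1 and 2 at 30 days, and 147 without Express617 replicate 1 at 30 days. Of the 203, 200 were tested in this fit, of which 20 were called above Express617 at 30 days (10% of those tested, beside 3.72% of all clusters), and 5 had a difference that grew (2.5%, beside 0.1801% of all). The 15-day Express617 libraries that helped to choose the 203 also enter the test of the change, so nothing is read from that last share. The sum was uneven over members, since Cluster_4688 alone had 790, 1106 and 1224 CPM in F0 at 30 days against 6.02, 4.54 and 4.50 CPM in Express617. Without it the 30-day sums were 705, 733 and 785 CPM in F0 against 391.9, 379 and 396.3 CPM in Express617. As a percentage of the G3D001 mean at 15 days, the median cluster at 30 days was at 1.80% ± 0.203 in F0 and 1.40% ± 0.191 in Express617. G3D001 itself was at 65.1% ± 15.5 on this measure at 30 days (SD, n = 3 each). The 9 called members of family A had 234, 179 and 155 CPM in F0 at 30 days and no count in Express617.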

How the data were processed

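Small RNA libraries from whole ovules were sequenced by the authors, who removed short reads with seqtk and ran ShortStack on the Express617 assembly. The counts deposited by the authors, whole reads per cluster or per sequence entry and not normalized, were used as deposited. The deposited table does not mark microRNAs, and no microRNA table was used here, so the microRNA families of the naming rule were not matched. Reads from near-identical loci may be divided among them.

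Clusters were tested with edgeR 4.0.16 (quasi-likelihood, TMM, R 4.3.3) in 9 libraries of F0, G3D001 and Express617 at 15 days, with a term for genotype alone, and p-values were adjusted by Benjamini-Hochberg over every cluster that had a count. The SE was the log2 fold change divided by the root of the F statistic. Sequence entries were tested apart, on the library sizes and TMM factors of the clusters. The change between stages was the interaction in 12 libraries of F0 and Express617. Levels, sums and positions were computed with pandas 2.3.3 and carry no test. The steps were tested on simulated data. Cluster totals of 13973699 to 19164106 counts put 1 count at under 0.1 CPM.

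Named clusters were all those called, the 10 paternal-specific highest in G3D001, the 5 highest in F0, the 5 maternal-specific highest in Express617 and the 5 highest over F0 and Express617, and sequence entries were those called and the 5 highest. The 24-nt and 21-nt entries shown were added after their values were seen. Members and lists were chosen with earlier results of these data known. Replicate numbers come from the labels. Libraries of F0 and Express617 with the same number deviated together from their group means (correlations of 0.280, 0.134 and 0.193, those of different numbers -0.21 to -0.02), so the numbers were taken as pairs, although no label says what a number shares. Alternatives were DESeq2 1.42.0, RLE and total-count scaling, a filter of 10 counts in 3 libraries, the replicate block, other sets of libraries, other limits and leaving out each library. The sequences of entries lower in F0 were left out.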

Additional observations from a re-analysis of the deposited data

Results flagged for a closer look

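The difference between F0 and Express617 itself changed between 15 and 30 days at 244 clusters by edgeR's interaction test, 80 with a smaller log2 fold change at 30 days and the others with a larger one. Of the 12 clusters called at 15 days, 10 were among them, but the 15-day libraries that chose the 12 also enter this test, so the count is no independent evidence.

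The difference grew at 3 clusters at which G3D001 was above Express617. The change in log2 fold change was 4.003 at Cluster_4688, 4.33 at Cluster_22660 and 3.83 at Cluster_56513. Cluster_22660 had 23.4, 26.7 and 34.4 CPM in F0 at 30 days against 0.0568, 0.407 and 0 CPM in Express617, and Cluster_56513 had 94.97, 191 and 189 CPM in F0 against 3.75, 1.80 and 3.25 CPM in Express617.

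At 4 clusters lower in F0 at 15 days the log2 fold change was larger at 30 days, by 4.22 at Cluster_60608, 2.21 at Cluster_41834, 2.82 at Cluster_88807 and 3.10 at Cluster_10479, and the Express617 mean was lower at 30 days than at 15 days. Cluster_10479 had 20.1, 21.5 and 18.4 CPM in F0 against 31.1, 146 and 128 CPM in Express617 at 15 days, and 14.7, 16.8 and 17.0 CPM in F0 against 8.75, 7.27 and 12.4 CPM in Express617 at 30 days. At Cluster_60608 F0 had 0.720, 0.470 and 0.220 CPM against 0.817, 8.58 and 6.51 CPM in Express617 at 15 days, and 0.963, 0.612 and 0.904 CPM against 0.796, 0.349 and 0.342 CPM in Express617 at 30 days. F0 at 15 days was thus near the 30-day levels at these clusters, as at the 23 sequence entries lower in F0. Unlike at those entries, the selfed F1 at 15 days was also below the Express617 mean at these clusters. It had 0.523, 0.434 and 0.342 CPM at Cluster_60608 and 29.5, 33.6 and 34.5 CPM at Cluster_10479. The part of a batch was not tested. Cluster_56228 changed by -1.76, with 0.688, 1.22 and 1.09 CPM in F0 at 30 days against 0.739, 1.57 and 1.25 CPM in Express617.

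The changes of -7.88 at Cluster_90566 and -8.22 at Cluster_87345 rested on single libraries at both stages. F0 replicate 3 alone was high at 15 days, and at 30 days Express617 replicate 1 alone was, at 186 CPM beside 6.75 and 5.07 CPM at Cluster_90566 and at 78.3 CPM beside 2.50 and 4.16 CPM at Cluster_87345.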

How the results depend on the processing

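The 12 clusters called between F0 and Express617 became 2 with the filter of 10 counts in 3 libraries, 66 with the replicate block, 204 with the 6 libraries of F0 and Express617 alone, 29 with all 12 libraries of the stage, 3 with sequence entries in the fit, 27 without A02 and C02, and 2 to 176 with a library left out. DESeq2 called 17. With a library left out, the clusters bounded within 2-fold numbered 8035 to 12415, and those called between F0 and G3D001 13519 to 19121. The replicate block also moved the paternal-specific clusters called, 2, to 6. It gave 47 sequence entries for 42 and was not fitted for the stage comparison. The count of leaf-chosen clusters called, 1, was 3 by DESeq2, 5 with the replicate block, 3 with the 6 libraries, 2 with a limit of 1 CPM, and 1 to 5 with a library left out.

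The F0 level at paternal-specific clusters was 0% with near absence set below 0.1 CPM, 0.577% below 1 CPM, 0.0716% with a high level from 50 CPM, 2.60% when chosen in leaves, and 0.327% to 0.366% with a library left out. At maternal-specific clusters it was 113% on TMM-scaled CPM and 104% to 108% with a library left out. The position between the parents ran from 0.0301 to 0.0644, the highest without Express617 replicate 3. The 42 sequence entries became 78 by DESeq2, 0 with the 6 libraries (310 at an unadjusted p under 0.05) and 9 to 19 with a library left out. The 244 clusters of the stage comparison became 78 without Express617 replicate 3 at 15 days and 893 without F0 replicate 1 at 30 days, the extremes. The log2 fold change of Cluster_87345 ran from -0.16 without F0 replicate 3 to 5.65 without F0 replicate 1. The cause of these changes was not tested, except that fewer clusters or libraries entered some fits by construction.

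With 3 libraries a group and levels below 0.5 CPM, paternal small RNA of a few counts could not be told from the Express617 background at most single clusters.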
